A study of Mus musculus with 6 samples.

Results

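The lysosome genes described here are 33 mouse genes for soluble acid hydrolases, proteins of the lysosomal membrane and subunits of the proton pump that acidifies the organelle. They were chosen by gene symbol: 6 membrane and lipid export proteins, 8 proteases, 8 glycosidases, 6 lipid hydrolases and cofactors, and 5 proton pump subunits. Each of the 33 matched a row in the tables of all 6 libraries, out of 18720 rows in all, and each reached a mean value of 10 over the libraries, as did 16594 rows. The rule uses symbols and no measured value, but the members were listed with earlier results of these data known.

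The libraries hold poly(A) RNA of liver from male C57BL/6 mice that were 1 year old, ate a high-fat diet and were injected into the peritoneum 2 times a week for 12 weeks, with R159 (3 libraries) or with vehicle (3 libraries). All 6 libraries share strain, sex, age and diet, and no lean or untreated mice are part of the comparison. The series title places R159 among agents against a signaling arm of gp130, the shared receptor chain of interleukin-6 type cytokines; R159 itself is known here only by its code name. The labels number the replicates but do not say whether each library is a separate animal, and the spread behind each p-value may then be technical.

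Lysosomes break down protein, glycan, lipid and nucleic acid that reaches them by endocytosis and autophagy. The vacuolar ATPase pumps protons into the lumen with a peripheral V1 sector, which splits ATP, and a membrane V0 sector, which carries the protons, and the hydrolases work at the low pH that results. Most hydrolases are tagged with mannose 6-phosphate in the Golgi and carried to lysosomes by mannose 6-phosphate receptors. TFEB and its relatives TFE3 and MITF bind a palindromic E-box motif, called CLEAR, near the start of many lysosomal genes, and mTORC1 on the lysosome surface keeps TFEB in the cytoplasm when nutrients are plentiful. In liver, lysosomes take part in the breakdown of lipid droplets in hepatocytes and in the handling of engulfed material by Kupffer cells, the resident macrophages.

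Estimated depth was 51.3 to 55.7 M reads in R159 libraries, against 66.0 to 76.7 M reads in vehicle libraries. R159 libraries listed 256 to 973 genes at 0, against 202 to 351 in vehicle libraries, and 8.42% to 13.6% of their signal came from mitochondrial genes, against 5.01% to 7.43% in vehicle libraries. The Pearson correlation of log2 values over tested genes was 0.939 to 0.949 between R159 libraries, against 0.979 to 0.986 between vehicle libraries. The library lowest in correlation with vehicle was R159 replicate 2, at 0.910 to 0.918, so member counts are also given without it. Differences also followed transcript length: among protein-coding genes with a longest transcript under 2000 nucleotides, 24.4% were higher in R159 libraries and 2.68% lower, whereas at 4000 nucleotides or more 4.09% were higher and 29.9% lower. Member values are therefore also given after length removal, in which a trend of log2 values on transcript length was subtracted from each library. All 12 hepatocyte markers were detected in every library, with summed values of 5176556 to 8631519 in R159 libraries, against 4386701 to 6304489 in vehicle libraries, so the tissue label and its defining markers do not conflict.

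The lysosomal transcripts that passed the test were all lower in R159 libraries. Of the 33 members, 13 fell in R159 libraries and 0 rose at a limma adjusted p under 0.05, which is 39.4% of members lower, where 27% of all tested genes were called, 14.2% lower and 12.8% higher. Of the 6001 genes whose mean value reached 1000, as that of all members but Gla and Glb1 did, 24.1% were lower and 14.7% higher, and of protein-coding genes 16.6% were lower. These shares are a description: no test over the list was run, since the members were listed with earlier results of these data known. At an unadjusted p under 0.05, 19 members passed, all with a negative difference. The share of all tested genes at that threshold was not counted, so no excess can be read from the 19. The 3 R159 libraries lay below all 3 vehicle libraries for 23 members and above them for Mcoln1 and Ctsh, with overlap for 8, while 23.6% of all tested genes had R159 below and 22.5% above. The members' median log2 difference was -0.41, where that of all tested genes was 0.00069, and 27 of 33 differences were negative. After removal of the length trend, 14 members were lower and 0 higher (of the genes with a length 18.2% were then called, 8.21% lower and 9.94% higher), with a member median of -0.40. With the median in place of the longest transcript length, 13 members were lower and 0 higher, where 8.2% of genes were lower and 10.3% higher. Scaling the libraries to equal totals moved the median of all genes by -0.21 and the split over all genes to 1173 higher and 2913 lower, against 2125 and 2354 as deposited, and 19 members were then lower. Without R159 replicate 2, 10 members were called, all lower, and of 16506 tested genes 1782 were lower and 1574 higher. In a piece of liver, fewer cells of a type and less RNA per cell cannot be told apart.

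**Figure D1:**
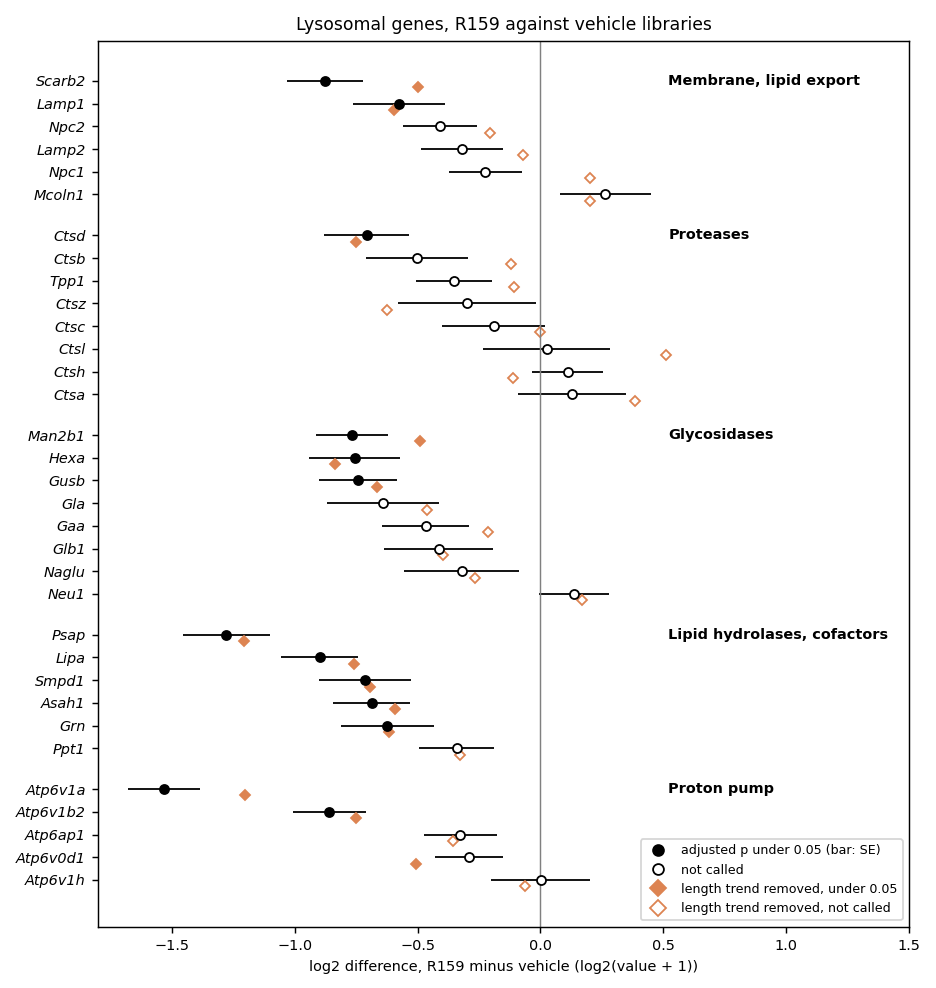
Log2 difference, R159 minus vehicle, of the 33 lysosomal genes in 5 groups by role (horizontal axis), with SE bars; filled points passed an adjusted p of 0.05, and diamonds give the difference after the length trend was removed. All 13 filled points lie left of 0, from Atp6v1a at -1.53 to Lamp1 at -0.58.

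Calls differed in how far they depended on single libraries. Psap, Lipa, Atp6v1a, Atp6v1b2, Scarb2 and Man2b1 kept an adjusted p under 0.05 whichever single library was left out. The other 7 lost it at least once: Lamp1 without each of the 6 libraries (adjusted p 0.0538 to 0.174), Ctsd and Asah1 without each vehicle library (up to 0.0924 and 0.0597), and Gusb and Hexa without vehicle replicate 1 or 2 (up to 0.0523 and 0.0711). Smpd1 lost it without R159 replicate 2 or any vehicle library (up to 0.0931), and Grn without R159 replicate 1 or 2 or vehicle replicate 1 or 2 (up to 0.152). The number of members called was 6 without vehicle replicate 1 and also 6 without vehicle replicate 2. It was 9 without vehicle replicate 3, and 10 to 13 without 1 R159 library. Over all tested genes the number called also dropped, from 4479 to 2500, 1841 and 2183 without vehicle replicate 1, 2 and 3. It was 3356 to 5425 without 1 R159 library.

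Lipid hydrolases and their cofactors had the lowest median log2 difference of the 5 groups by role, -0.70. Of the 6 genes, 5 fell (83.3%), where 14.2% of all tested genes were lower. Psap, the precursor of the saposins that present sphingolipids to their hydrolases, had values of 19055, 19357 and 23299 in R159 libraries, against 49242, 52124 and 47822 in vehicle libraries. Every vehicle library lay far above every R159 library. Psap averaged 20570.3 ± 2368 in R159 libraries and 49729 ± 2192 in vehicle libraries (SD, n = 3 each), and the log2 difference was -1.28 (SE 0.18, limma adjusted p = 0.00382), or -1.21 after length removal (adjusted p = 0.00357). Lipa, the acid lipase that splits cholesteryl esters and triglycerides in lysosomes, had values of 8261, 9414 and 9847 in R159 libraries, against 16722, 16127 and 18414 in vehicle libraries, and the groups stayed far apart. Lipa averaged 9174 ± 819.6 in R159 libraries and 17088 ± 1187 in vehicle libraries (SD, n = 3 each), and the log2 difference was -0.90 (SE 0.16, limma adjusted p = 0.00573), or -0.76 after length removal (adjusted p = 0.00776). Asah1, the acid ceramidase, had 1193, 976 and 1222 in R159 libraries, against 1860.4, 1697 and 1886 in vehicle libraries (log2 difference -0.69, SE 0.16, adjusted p = 0.0147; after length removal -0.59, adjusted p = 0.0246). Smpd1, the acid sphingomyelinase that makes ceramide from sphingomyelin, had 1655, 1661 and 2401 in R159 libraries, against 2835, 2939.9 and 3505 in vehicle libraries (log2 difference -0.72, SE 0.19, adjusted p = 0.0241; after length removal -0.69, adjusted p = 0.0245). Neither gene's groups overlapped, though R159 replicate 3 came closest to the vehicle range for Smpd1. Grn, the precursor of granulins with roles in lysosomal lipid metabolism, had 8106, 9987 and 10854 in R159 libraries, against 16500.3, 16055 and 12135 in vehicle libraries (log2 difference -0.62, SE 0.19, adjusted p = 0.0392; after length removal -0.62, adjusted p = 0.0338). Vehicle replicate 3 was the low vehicle library for Grn. With the median transcript length in place of the longest, Grn did not pass (-0.54, adjusted p = 0.05995). Ppt1, which removes palmitate from proteins, had 1772, 1845 and 2093 in R159 libraries, against 2491, 2579 and 2168 in vehicle libraries (log2 difference -0.34, SE 0.15, adjusted p = 0.120). Every R159 library lay below every vehicle library for Ppt1, but by a margin that did not pass the test; with the length trend taken on the median instead of the longest transcript, Ppt1 passed (-0.72, adjusted p = 0.0147).

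In the proton pump 2 of 5 members fell (40%), with a median of -0.33. Of all tested genes 14.2% were lower, and of those with a mean value of at least 1000, 24.1%. Atp6v1a, the catalytic A subunit of the V1 sector, had the largest fall of the 33 members, with values of 1027, 1206 and 1029 in R159 libraries, against 3228, 2987 and 3204 in vehicle libraries. Atp6v1a averaged 1088 ± 103 in R159 libraries and 3139.8 ± 133 in vehicle libraries (SD, n = 3 each), and the log2 difference was -1.53 (SE 0.15, limma adjusted p = 0.00299), or -1.20 after length removal (adjusted p = 0.00357). Its partner in the V1 head, the B subunit Atp6v1b2, had 1419, 1734 and 1683 in R159 libraries, against 2963, 2982 and 2802 in vehicle libraries. Atp6v1b2 averaged 1612 ± 169 in R159 libraries and 2916 ± 99.2 in vehicle libraries (SD, n = 3 each), and the log2 difference was -0.86 (SE 0.15, limma adjusted p = 0.00563), or -0.75 after length removal (adjusted p = 0.00781). Both subunits of the ATP-splitting head had R159 values well below the vehicle range. The remaining members were not called. Atp6v0d1, which joins the rotor stalk to the V0 ring, had 2947, 3221 and 3325 in R159 libraries, against 4077, 3797 and 3728 in vehicle libraries (log2 difference -0.29, SE 0.14, adjusted p = 0.147), and passed the test once the length trend was removed (-0.51, adjusted p = 0.021). Atp6ap1, an accessory protein of pump assembly, had 3354, 3919 and 4314 in R159 libraries, against 4764, 4773 and 4912 in vehicle libraries (log2 difference -0.33, SE 0.15, adjusted p = 0.133). R159 libraries lay below vehicle for both genes by small margins. Atp6v1h, a regulatory V1 subunit, averaged 3028 ± 866 in R159 libraries and 2949.8 ± 118 in vehicle libraries (SD, n = 3 each; log2 difference 0.0015, limma adjusted p = 0.996) and its groups overlapped, with R159 replicate 2 the highest of all 6 libraries.

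Of 16 other pump genes, 2 fell (12.5%) and 3 rose, where 14.2% of all tested genes were lower and 12.8% higher. Their median was -0.15, and after length removal 3 were lower and 1 higher, where 8.21% of genes were lower and 9.94% higher. Another scaling turned this split round: 5 were lower and 1 higher with equal library totals, and 3 lower and 1 higher with totals that leave out the 20 highest genes. Wdr7, an associated protein also called a rabconnectin, had 722, 522 and 559 in R159 libraries, against 1489, 1559 and 1555 in vehicle libraries (log2 difference -1.36, SE 0.17, adjusted p = 0.00343; after length removal -0.85, adjusted p = 0.00568). Atp6v0a2, a V0 subunit, fell (log2 difference -0.59, SE 0.14, adjusted p = 0.0154) but not after length removal (-0.15, adjusted p = 0.449) nor without any 1 vehicle library (adjusted p up to 0.0792). Among the risers, Atp6v1g1, a stalk subunit, had 3585, 5817 and 4380.0 in R159 libraries, against 2469, 2138 and 2252 in vehicle libraries (log2 difference 0.98, SE 0.19, adjusted p = 0.00837; after length removal 0.44, adjusted p = 0.033). Atp6v0b, a proteolipid of the V0 ring, and Atp6v1f, a small V1 subunit added here after its values were seen, rose by 0.61 and 0.69 (adjusted p = 0.0289 and 0.0428), but their differences were -0.04 and -0.15 after length removal. Both also lost their call without R159 replicate 2, vehicle replicate 2 or vehicle replicate 3 (adjusted p up to 0.128 and 0.135), Atp6v1f also without R159 replicate 3 or vehicle replicate 1.

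**Figure D2:**
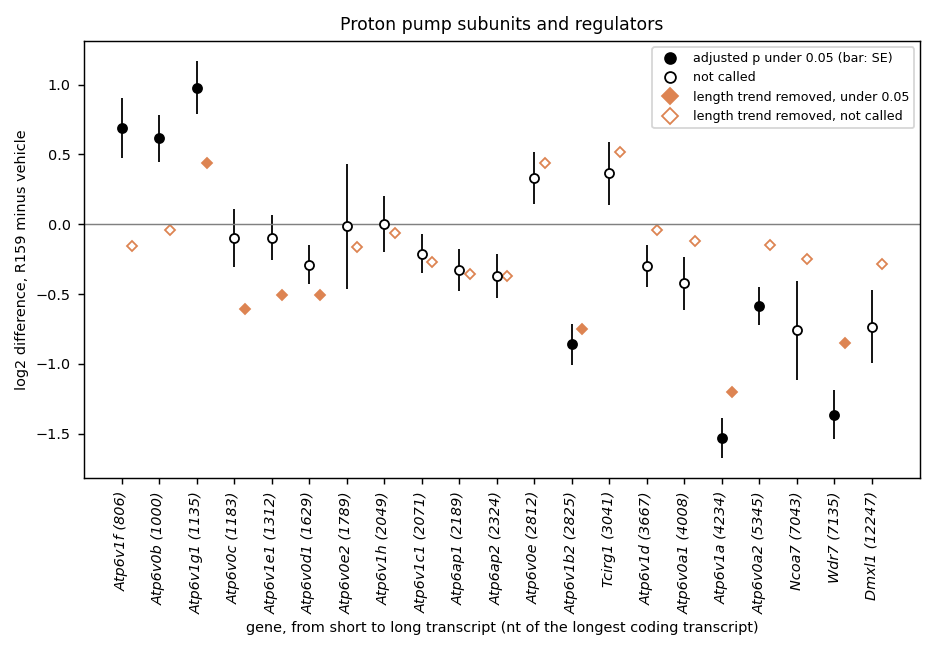
Log2 difference, R159 minus vehicle, with SE bars, of the 21 proton pump genes tested, ordered along the horizontal axis from short to long transcript, whose length in nucleotides stands beside each name, with filled points where the adjusted p was under 0.05 and diamonds for the difference after length removal. Atp6v1a and Wdr7 lie at -1.53 and -1.36 and Atp6v1g1 at 0.98; Atp6v0b and Atp6v1f lie above 0 as deposited but just below it after length removal.

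Among glycosidases 3 of 8 fell (37.5%), with a median of -0.55. Of all tested genes 14.2% were lower, and of those with a mean value of at least 1000, 24.1%. Man2b1, the alpha-mannosidase that trims N-glycans in lysosomes, had 4883, 4257 and 5116 in R159 libraries, against 8293, 8325 and 7625 in vehicle libraries. Man2b1 averaged 4752 ± 444 in R159 libraries and 8081 ± 395 in vehicle libraries (SD, n = 3 each), and the log2 difference was -0.77 (SE 0.15, limma adjusted p = 0.00772), or -0.49 after length removal (adjusted p = 0.0287). With the median transcript length in place of the longest, Man2b1 did not pass (-0.39, adjusted p = 0.0609). Hexa, the alpha subunit of the hexosaminidase that degrades GM2 ganglioside, had 2029.7, 2815 and 3038 in R159 libraries, against 4888, 4251 and 4028 in vehicle libraries (log2 difference -0.76, SE 0.19, adjusted p = 0.0187; after length removal -0.84, adjusted p = 0.00868). Gusb, which releases glucuronic acid from glycosaminoglycans, had 1178, 1281 and 1449.9 in R159 libraries, against 2433, 2119.8 and 1989.9 in vehicle libraries (log2 difference -0.74, SE 0.16, adjusted p = 0.0113; after length removal -0.66, adjusted p = 0.0165). For all 3 the highest R159 library was below the lowest vehicle library. Gla, the alpha-galactosidase that acts on globotriaosylceramide, was the lowest member in value, with 229, 167 and 186 in R159 libraries, against 323, 319 and 262 in vehicle libraries (log2 difference -0.64, SE 0.23, adjusted p = 0.0643). Gaa, the acid alpha-glucosidase that degrades glycogen, had 4414, 4358 and 5818 in R159 libraries, against 5883, 6505 and 7744 in vehicle libraries (log2 difference -0.47, SE 0.18, adjusted p = 0.0794). Neither passed, although every R159 library was below every vehicle library; for Gaa, R159 replicate 3 almost reached vehicle replicate 1. Glb1, the beta-galactosidase, averaged 606 ± 170.1 in R159 libraries and 787 ± 24.8 in vehicle libraries (SD, n = 3 each; log2 difference -0.41, limma adjusted p = 0.189), and Naglu, which acts on heparan sulfate, averaged 1360.3 ± 425 in R159 libraries and 1641 ± 110.3 in vehicle libraries (SD, n = 3 each; log2 difference -0.32, limma adjusted p = 0.330). In both genes R159 replicate 3 reached the vehicle range. Neu1, the sialidase, averaged 3075 ± 225 in R159 libraries and 2798 ± 162 in vehicle libraries (SD, n = 3 each; log2 difference 0.14, limma adjusted p = 0.501), and overlapped too.

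Proteases had the median nearest 0 of the 5 groups, -0.25, and 1 of 8 fell (12.5%, where 14.2% of all tested genes were lower). Ctsd, the aspartic protease cathepsin D, had 14139, 17705 and 18272 in R159 libraries, against 26823, 28222 and 26283 in vehicle libraries. Ctsd averaged 16706 ± 2241 in R159 libraries and 27109 ± 1000.5 in vehicle libraries (SD, n = 3 each), and the log2 difference was -0.71 (SE 0.17, limma adjusted p = 0.0187), or -0.75 after length removal (adjusted p = 0.00893). Ctsb, the cysteine protease cathepsin B, had 26769, 31818 and 40040.2 in R159 libraries, against 45153, 48782 and 43939.8 in vehicle libraries (log2 difference -0.50, SE 0.21, adjusted p = 0.100); R159 was below vehicle throughout, but the R159 libraries spread widely. Ctsl, cathepsin L, had 22557, 31582 and 45405 in R159 libraries, against 33905, 30516 and 29692 in vehicle libraries (log2 difference 0.02, SE 0.26, adjusted p = 0.954). R159 libraries held both the lowest and the highest of the 6 Ctsl values. Tpp1, a tripeptidyl peptidase, had 4929, 6023 and 5329 in R159 libraries, against 6739, 7624 and 6396 in vehicle libraries (log2 difference -0.35, SE 0.15, adjusted p = 0.116), without overlap. Ctsh, cathepsin H, was 1 of 2 members with R159 above vehicle, with 12524, 11869 and 12421 in R159 libraries, against 10678, 11798 and 11647 in vehicle libraries (log2 difference 0.11, SE 0.15, adjusted p = 0.597). The gap between the Ctsh groups was small beside their spread. Ctsa, the protective protein of Neu1 and Glb1, averaged 11837 ± 3135 in R159 libraries and 10571 ± 968 in vehicle libraries (SD, n = 3 each; log2 difference 0.13, limma adjusted p = 0.686). Ctsc, which activates granule proteases of immune cells, averaged 3789 ± 111 in R159 libraries and 4442 ± 1179.9 in vehicle libraries (SD, n = 3 each; log2 difference -0.19, limma adjusted p = 0.519), and Ctsz, a carboxypeptidase, averaged 17788 ± 6003 in R159 libraries and 21178 ± 3881 in vehicle libraries (SD, n = 3 each; log2 difference -0.30, limma adjusted p = 0.449). All 3 had overlapping groups.

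Of the 6 membrane and lipid export proteins 2 fell (33.3%), with a median of -0.36. Of all tested genes 14.2% were lower, and of those with a mean value of at least 1000, 24.1%. Scarb2, also known as LIMP-2, carries beta-glucocerebrosidase to lysosomes and had 6098, 4912 and 5923 in R159 libraries, against 9638, 10365 and 11029 in vehicle libraries. Scarb2 averaged 5644 ± 641 in R159 libraries and 10344 ± 696 in vehicle libraries (SD, n = 3 each), and the log2 difference was -0.88 (SE 0.16, limma adjusted p = 0.00614), or -0.50 after length removal (adjusted p = 0.0208). Lamp1, a main glycoprotein of the lysosomal membrane, had 26742, 32087 and 33705 in R159 libraries, against 47199, 46613 and 43544 in vehicle libraries. Lamp1 averaged 30844 ± 3644 in R159 libraries and 45785 ± 1963 in vehicle libraries (SD, n = 3 each), and the log2 difference was -0.58 (SE 0.19, limma adjusted p = 0.0474), or -0.60 after length removal (adjusted p = 0.0256). Its close relative Lamp2, which also serves chaperone-mediated autophagy, had 20470.1, 22179 and 23046 in R159 libraries, against 25079, 28268 and 28643 in vehicle libraries (log2 difference -0.32, SE 0.17, adjusted p = 0.179). R159 lay below vehicle for both Lamp genes, and only Lamp1 passed the test; whether their differences differ was not tested. Npc1 and Npc2 hand cholesterol out of the lysosome. Npc2 had 3373, 3121 and 3881 in R159 libraries, against 4892, 4272 and 4584 in vehicle libraries (log2 difference -0.41, SE 0.15, adjusted p = 0.0711). Npc1 had 6526, 8005 and 7624 in R159 libraries, against 8529.7, 8769.7 and 8509.6 in vehicle libraries (log2 difference -0.23, SE 0.15, adjusted p = 0.284), and its difference turned to 0.20 after length removal (adjusted p = 0.415). Both lay below vehicle as deposited and neither passed. Mcoln1, a calcium channel of the lysosome that acts upstream of TFEB, had 3126, 2085 and 2118 in R159 libraries, against 2044, 1958 and 1992 in vehicle libraries (log2 difference 0.26, SE 0.18, adjusted p = 0.311), with R159 replicate 1 far above the other libraries.

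**Figure D3:**
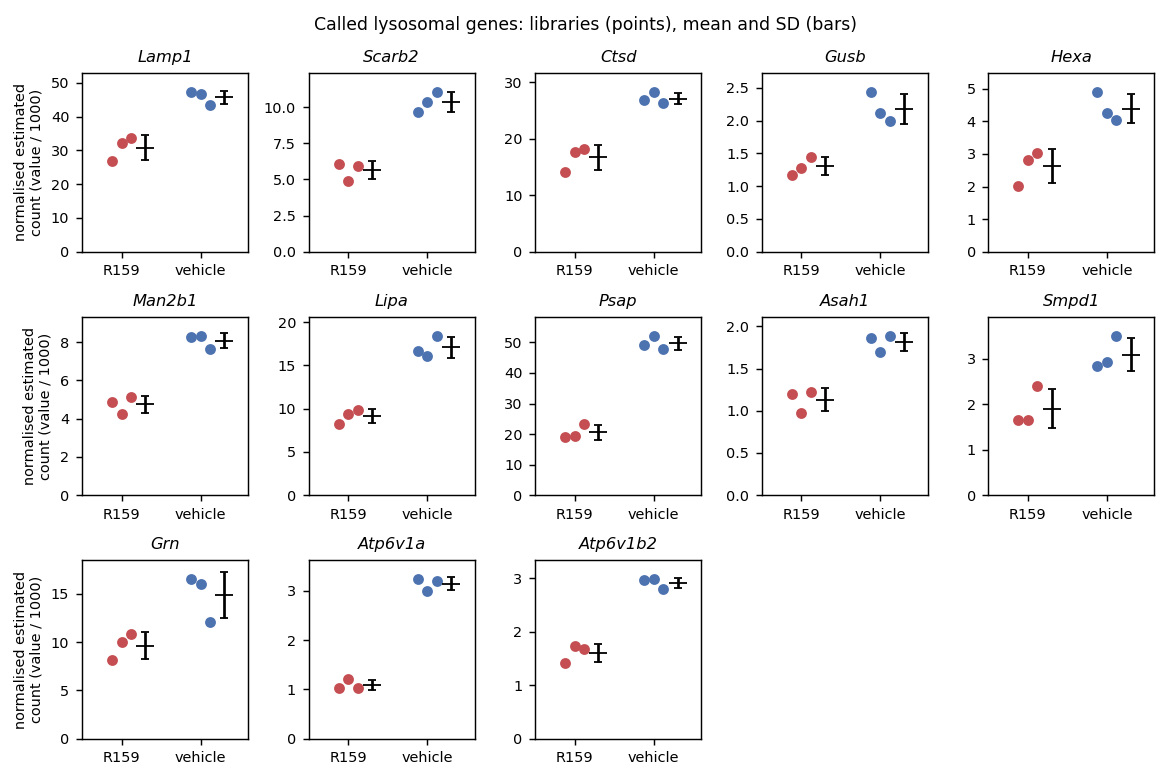
Deposited values (vertical axes from 0, tick labels divided by 1000) of the 13 members that were lower, 1 panel a gene, with 3 R159 points left of 3 vehicle points and the mean with SD bars beside each group. In every panel the highest R159 point lies below the lowest vehicle point, with the narrowest gap relative to its values for Grn.

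For 4 of the 13, GENCODE M21 exons overlap another gene, and whether counting used strand is not given in the sources used here. Grtp1, on the strand opposite Lamp1, rose (0.74, adjusted p = 0.0123), and Fam171a2, opposite Grn, had a log2 difference of -0.02 (adjusted p = 0.979). The partners of Ctsd and Hexa, Gm49369 and Tmem202, matched no row by symbol, so no difference is given for them. Exons of Npc1, Ctsa, Ctsb, Ctsl, Ctsz, Glb1, Ppt1 and Atp6v1h, which were not called, overlap other genes too, and reads of such pairs cannot be told apart with certainty.

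The 3 R159 libraries differed in how low the members lay. The median member was 0.60 below its vehicle mean on the log2 scale in R159 replicate 1, 0.51 below in replicate 2 and 0.24 below in replicate 3, while the median of all tested genes was within 0.014 of it in each. In R159 replicate 1, 29 members were below the lowest vehicle library, as were 25 in replicate 2 and 24 in replicate 3. Above the highest vehicle library lay 3 members in R159 replicate 1, 5 in replicate 2 and 5 in replicate 3. The shares of all tested genes outside the vehicle range were not counted for single libraries, so no excess can be read from these counts. R159 replicate 1 had the lowest of the 3 R159 values for 23 members and replicate 3 the highest for 22. The member values summed to 238758, 285443 and 320052 in R159 libraries, against 394528, 400062 and 378942 in vehicle libraries, so the sums did not overlap, and the most abundant members carry them.

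By transcript length, most members that fell lay in 1 range. Of the 16 members with a longest transcript of 2000 to 3000 nucleotides, 9 were lower, with a median of -0.60, while 10.3% of the 3034 protein-coding genes in that range were lower and their median was -0.03. In the range of 3000 to 4000 nucleotides 1 of 8 members was lower, against 19.4% of genes. Of 5 members at 4000 or more, 2 were lower, against 29.9% of genes, and of 4 under 2000, 1 was lower, against 2.68%.

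**Figure D4:**
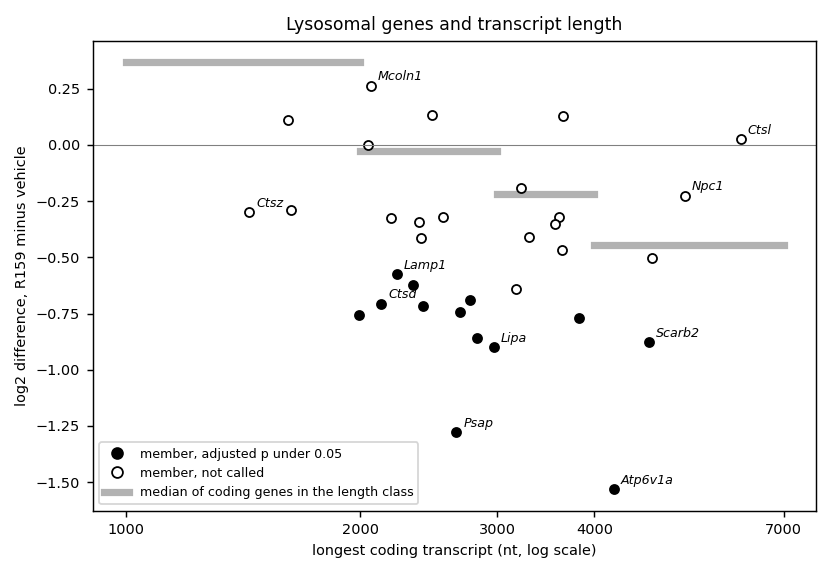
Longest transcript length in nucleotides (horizontal axis, logarithmic) against the log2 difference, R159 minus vehicle, for the 33 members, filled where lower, with the median of protein-coding genes in each of 4 length ranges as grey bars; the outermost ranges are open-ended and drawn only within the axis. Between 2000 and 3000 nucleotides most members lie below the grey bar at -0.03, with a member median of -0.60.

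Promoter windows of 250 bases before to 50 after the start were read from the RefSeq table of GRCm38.p6, which holds 27 of the 33 members with 29 windows in all, so a gene is counted as holding a motif where any of its windows does; Npc1, Ctsb, Ctsh, Asah1, Atp6v1b2 and Atp6v1h were not in it. The E-box core CACGTG, a palindrome that reads the same on both strands, stood by 11 of the 27 members (40.7%), by 8.09% of all 27025 genes with a window and by 11.2% of the 11572 tested genes that have one. It stood by 11 of 51 other lysosomal hydrolases, membrane proteins and pump genes (21.6%). The longer GTCACGTG, with CACGTGAC on the other strand, contains that core and stood by 8 of 27 members (29.6%), against 4.47% of tested genes. The full palindrome, in which the core has GT before it and AC after it on the same strand, stood by 0 of 27 members, against 0.709% of tested genes and 1 of the 51 other lysosomal genes, so these letters are not in the members' windows. Members with the core were Lamp1, Mcoln1, Ctsa, Ctsd, Ctsl, Gla, Glb1, Naglu, Gaa, Atp6v0d1 and Atp6v1a. By outcome, the core stood by 3 of 11 members that fell (27.3%) and by 8 of 16 members not called (50%). A match is a description of the letters and not evidence of a bound site.

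The sequences of the 3 members that fell and hold the core are shown with 3 that were not called, so that both outcomes can be read beside the motif. Those not called were picked from the ones with GTCACGTG and no copy close to the start. No such condition was set for the members that fell, so the sets are not matched. They run 5′ to 3′ on the gene's strand in GRCm38.p6, and capitals mark CACGTG. Lamp1 (chr8:13159070-13159160, plus strand) has 4 copies between 61 and 15 bases before the start. Ctsd (chr7:142387890-142388077, minus strand) has 2 copies, 245 and 98 bases before it, and Atp6v1a (chr16:44139355-44139420, minus strand) 1 copy, 131 bases before it.
Lamp1: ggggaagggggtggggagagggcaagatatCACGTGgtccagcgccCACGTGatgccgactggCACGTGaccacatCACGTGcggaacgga
Ctsd: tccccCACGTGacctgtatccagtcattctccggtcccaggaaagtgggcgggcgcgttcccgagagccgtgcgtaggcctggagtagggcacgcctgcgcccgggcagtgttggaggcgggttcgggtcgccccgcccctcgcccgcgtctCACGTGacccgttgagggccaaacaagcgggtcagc
Atp6v1a: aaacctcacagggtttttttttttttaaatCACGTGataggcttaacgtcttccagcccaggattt
Of the members not called, Mcoln1 (chr8:3500418-3500509, plus strand) has 2 copies, 71 and 45 bases before the start. Glb1 (chr9:114401000-114401065, plus strand) has 1 copy, 48 bases before it, and Naglu (chr11:101069991-101070056, plus strand) 1 copy, 73 bases before it.
Mcoln1: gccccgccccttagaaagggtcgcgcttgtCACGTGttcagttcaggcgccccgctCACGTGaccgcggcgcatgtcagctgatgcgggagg
Glb1: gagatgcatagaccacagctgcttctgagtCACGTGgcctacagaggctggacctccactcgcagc
Naglu: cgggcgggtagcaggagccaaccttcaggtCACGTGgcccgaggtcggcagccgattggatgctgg
Among these, Atp6v1a with 1 copy had the largest fall at -1.53, Lamp1 with 4 copies fell by 0.58 on the log2 scale, and Mcoln1 with 2 copies had a difference of 0.26.

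The transcripts of Tfeb, Tfe3 and Mitf were not called. Tfeb had 489.9, 588 and 572 in R159 libraries, against 648, 540.2 and 527 in vehicle libraries (log2 difference -0.05, SE 0.18, adjusted p = 0.846), and Tfe3 had 1450.1, 1714 and 1284 in R159 libraries, against 1654, 1837 and 2023 in vehicle libraries (log2 difference -0.31, SE 0.17, adjusted p = 0.187). Mitf had 176, 168 and 69.9 in R159 libraries, against 156, 199 and 193 in vehicle libraries (log2 difference -0.51, SE 0.37, adjusted p = 0.333). The groups overlapped for all 3, and transcript levels do not report where the proteins are in the cell. Of 26 genes of TFEB control and nutrient sensing, 6 fell (23.1%) and 3 rose, where 14.2% of all tested genes were lower and 12.8% higher. After length removal 3 were lower and 1 higher, where 8.21% of genes were lower and 9.94% higher. With equal library totals 7 were lower and 0 higher, and with totals that leave out the 20 highest genes 5 were lower and 1 higher. Rragd, a Rag GTPase at the lysosome and a known TFEB target, had the largest log2 difference of the list, with 82.4, 33.1 and 49.0 in R159 libraries, against 444, 393 and 131 in vehicle libraries (log2 difference -2.45, SE 0.51, adjusted p = 0.0103; after length removal -2.04, adjusted p = 0.0286). Vehicle replicate 3 was far below the other vehicle libraries for Rragd. Fnip2, a folliculin partner, and Rptor, the mTORC1 scaffold, fell by 1.14 and 0.99 on the log2 scale (adjusted p = 0.00568 and 0.00548). After length removal their differences were -0.63 and -0.49. Lamtor5, of the Ragulator complex, rose by 0.83 (adjusted p = 0.0167) but differed by 0.06 after length removal (adjusted p = 0.777), and did not pass without vehicle replicate 2 or 3 (adjusted p up to 0.0719). Zkscan3 and Nprl2, named after their values were seen, rose as well. Zkscan3, described as a repressor of autophagy and lysosome genes, had 6136, 2746 and 2914 in R159 libraries, against 1702, 2182 and 1662 in vehicle libraries (log2 difference 1.00, SE 0.29, adjusted p = 0.0351); it lost its call without any 1 vehicle library (adjusted p up to 0.106), and R159 replicate 1 stood far above the rest. After length removal the Zkscan3 difference was 1.46 (adjusted p = 0.00736), and with the median transcript length 1.14 (adjusted p = 0.0308). Nprl2, of the GATOR1 complex, rose by 0.62 (adjusted p = 0.0321), but its call held neither after length removal (0.29, adjusted p = 0.287) nor without R159 replicate 2 or 3 or any 1 vehicle library (adjusted p up to 0.124).

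Of 28 other lysosomal hydrolases 10 fell and 0 rose at the limma threshold, with a median of -0.48. Of all tested genes 14.2% were lower and 12.8% higher. At an unadjusted p under 0.05, 15 of the 28 passed, but the share of all tested genes there was not counted. After length removal 9 of these hydrolases were lower and 0 higher, where 8.21% of genes were lower and 9.94% higher. Arsb, a sulfatase of dermatan sulfate, had 1292, 1142 and 1731 in R159 libraries, against 4068, 3925 and 3898 in vehicle libraries (log2 difference -1.54, SE 0.18, adjusted p = 0.00311; after length removal -1.23, adjusted p = 0.00432). Sgsh, an enzyme of heparan sulfate breakdown, fell by 1.20 on the log2 scale (adjusted p = 0.00402). Manba, the beta-mannosidase, fell by 0.76 (adjusted p = 0.0111), but did not pass once vehicle replicate 1 was left out (adjusted p = 0.0516). It passed after length removal (-0.50, adjusted p = 0.0432), but not with the median transcript length (-0.40, adjusted p = 0.0876). Of 22 other membrane proteins 7 fell and 1 rose, with a median of -0.31; after length removal 8 were lower and 1 higher, while with equal library totals 8 were lower and 0 higher and without the 20 highest genes 7 lower and 0 higher. Laptm5, a lysosomal protein of blood cells, had 823, 623 and 1302 in R159 libraries, against 2893, 2909 and 1919.5 in vehicle libraries (log2 difference -1.53, SE 0.28, adjusted p = 0.00678), and its relative Laptm4b had 789, 775 and 703 in R159 libraries, against 1361, 1463 and 1465 in vehicle libraries (log2 difference -0.92, SE 0.15, adjusted p = 0.00494). Slc15a3, a histidine and peptide carrier, fell by 1.21 (adjusted p = 0.00758). Clcn7, a chloride-proton exchanger, fell by 0.76 (adjusted p = 0.00783). The Clcn7 difference was -0.44 after length removal (adjusted p = 0.0453), but did not pass with the median transcript length (-0.36, adjusted p = 0.0805). The riser was Slc38a9, the arginine sensor of mTORC1, named after its values were seen, with 845, 556 and 506 in R159 libraries, against 361, 421 and 353 in vehicle libraries (log2 difference 0.72, SE 0.23, adjusted p = 0.0472; after length removal 1.23, adjusted p = 0.00539). It lost its call without R159 replicate 1 or 2 or any 1 vehicle library (adjusted p up to 0.135).

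**Figure D5:**
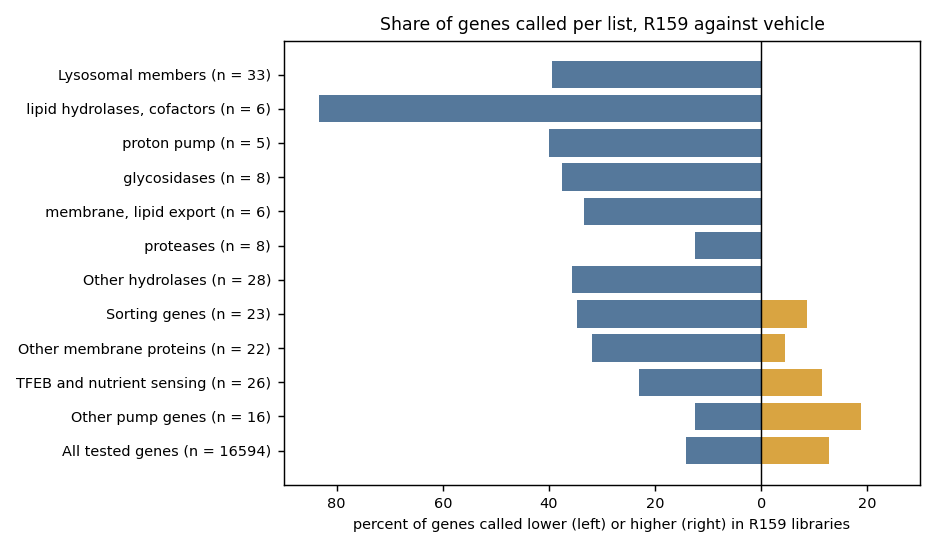
Percent of genes lower (left of 0) and higher (right of 0) in R159 libraries at an adjusted p of 0.05, for the 33 members, their 5 groups by role, the companion lists and all 16594 tested genes. Members have 39.4% lower and 0 higher, all tested genes 14.2% lower and 12.8% higher.

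Of 23 genes that sort hydrolases to lysosomes, 8 fell (34.8%) and 2 rose, where 14.2% of all tested genes were lower and 12.8% higher. Their median was -0.37, and after length removal 6 were lower and 2 higher, where 8.21% of genes were lower and 9.94% higher. With equal library totals, and also with totals that leave out the 20 highest genes, 11 were lower and 0 higher. Igf2r, the large mannose 6-phosphate receptor, had 1951, 1560.0 and 1911 in R159 libraries, against 4323, 4112 and 3789 in vehicle libraries (log2 difference -1.18, SE 0.15, adjusted p = 0.00345; after length removal -0.67, adjusted p = 0.0194). Gnptab, which encodes the catalytic subunits of the enzyme that starts the mannose 6-phosphate tag, had 497, 321 and 521 in R159 libraries, against 1013, 1012 and 964 in vehicle libraries (log2 difference -1.19, SE 0.22, adjusted p = 0.00657; after length removal -0.75, adjusted p = 0.0259). Both receptor and tagging enzyme lay below every vehicle library. Ap1g1, of the AP-1 coat, fell by 1.09 (adjusted p = 0.00758; after length removal -0.57, adjusted p = 0.023). Gga2, a coat adaptor, fell by 0.91 (adjusted p = 0.0142), but not after length removal (-0.51, adjusted p = 0.114) or without any 1 vehicle library (adjusted p up to 0.052). The 2 that rose, named after their values were seen, were Gnptg, the gamma subunit of the tagging enzyme (log2 difference 0.59, SE 0.18, adjusted p = 0.042), and Vps29, of the retromer (log2 difference 0.62, SE 0.20, adjusted p = 0.0467). Gnptg lost its call without R159 replicate 2 or 3 or any 1 vehicle library (adjusted p up to 0.131), and Vps29 without R159 replicate 1 or 2 or any 1 vehicle library (adjusted p up to 0.160). After length removal both passed (Gnptg 0.58, adjusted p = 0.0287, and Vps29 0.70, adjusted p = 0.0399). With the median transcript length, the Vps29 difference was -0.01 (adjusted p = 0.966), while Gnptg passed (0.49, adjusted p = 0.0417).

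Macrophages are rich in lysosomes, and of 20 of their markers 6 fell (30%), 0 rose and 14 were not called. Of all tested genes 14.2% were lower and 12.8% higher. R159 lay below vehicle for 6 markers and above for 2, with overlap for 12. Of all tested genes, 23.6% had R159 below and 22.5% above. After length removal 9 markers were lower and 0 higher, where 8.21% of genes were lower and 9.94% higher. With the median transcript length 8 markers were lower and 0 higher. The summed value of the 20 markers was 24804 to 34520 in R159 libraries, against 35949 to 54526 in vehicle libraries, with none at 0 in a library. Mpeg1, a pore-forming protein of macrophages, had the largest fall in value. Without it, left out after seeing the data, the sums were 21929 to 30082 in R159 libraries, against 27989.9 to 42466 in vehicle libraries, and overlapped. No other marker was left out in turn, so whether the separation depends on Mpeg1 alone was not tested. At an unadjusted p under 0.05, 12 of the 20 passed, but the share of all tested genes at that threshold was not counted. Positive differences, named after their values were seen, were those of Timd4 (2.09), Marco (3.07), Clec4f (0.20), Vsig4 (0.25) and Aif1 (0.10). The groups of Clec4f, Vsig4 and Aif1 overlapped. Timd4 and Marco, markers of resident macrophages, were not called (limma adjusted p = 0.0872 and 0.0619). For both, vehicle replicate 1 was far below the other vehicle libraries, at 10.8 against 118 and 147 for Timd4 and 20.8 against 397 and 622 for Marco. With 1 library left out their differences were as small as 0.93 and 1.57. Adgre1, which encodes the F4/80 antigen, had 221, 209.9 and 471 in R159 libraries, against 865, 1158 and 879 in vehicle libraries (log2 difference -1.77, SE 0.31, adjusted p = 0.00595). Gpnmb, a glycoprotein of lipid-laden macrophages, had 144, 144 and 57.6 in R159 libraries, against 1267, 1005 and 521 in vehicle libraries (log2 difference -3.03, SE 0.43, adjusted p = 0.00382). Both were well below the vehicle range in every R159 library. Cd68, itself a lysosomal glycoprotein of macrophages, had 631, 1002 and 816 in R159 libraries, against 1408, 1683 and 924 in vehicle libraries (log2 difference -0.69, SE 0.26, adjusted p = 0.0731), and Lyz2, lysozyme M, had 4117, 3464 and 4943 in R159 libraries, against 4872, 5690.2 and 3661 in vehicle libraries (log2 difference -0.18, SE 0.21, adjusted p = 0.550). Neither passed the test as deposited, although Cd68 did after length removal (-1.16, adjusted p = 0.0108). The part of macrophage RNA in the lysosomal differences was not tested. Erythroid markers rose in 5 of 7 (1 of 7 after length removal, 2 with the median length), with summed values of 40808 to 60039 in R159 libraries, against 12957 to 21877 in vehicle libraries, and their part and that of the mitochondrial share were not tested.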

How the data were processed

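Per the labels' protocols, poly(A) RNA of 6 mouse liver samples went into stranded libraries read from both ends (50 bp reads). Tools named in the submitters' processing notes are FastQC 0.11.9, cutadapt, STAR 2.7.8a, R 4.2.3 and DESeq2, whose version they give as 3.5, and the genome build named there is mm39. Neither the counting tool nor its strand setting is given in the sources used. What the authors deposited is a signal with no stated unit. Its values behave like fractional estimates of reads per gene after scaling by a single factor in each library. Depth was estimated from the spacing of low values. Since only 67.5% to 75.6% of values below 200 reads came out whole (tolerance 0.02 reads), no count model was used.

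The 16594 of 18720 rows that reached a mean value of 10 entered 1 limma fit (version 3.58.1, R 4.3.3) of log2(value + 1) on group, with trended empirical Bayes and Benjamini-Hochberg adjustment over all rows fitted. "Called", "fell", "rose", "lower" and "higher" mean an adjusted p under 0.05. Differences of low genes are understated on this scale. Estimated depth was 51.3 to 76.7 M reads per library, and precision is given as the spread between libraries. For length removal, a lowess trend (span 0.3) of the library's log2 deviation from the gene's mean over all libraries on log transcript length, fitted over protein-coding genes with a mean of 100 or more, was subtracted from the 16064 rows with a length in GENCODE M21, and the fit was repeated. That annotation is on GRCm38 and was matched by symbol only. Promoter sequences are those of RefSeq on GRCm38.p6. The fit was tested on simulated data. Alternatives were leaving out each library, other scalings, pseudocounts (0.5 and 8), filters, empirical Bayes options, sample weights, a replicate block and length removal; the median transcript length was added after seeing the data.

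The members and the companion and marker lists were chosen with earlier results of these data known. Values per library are given for every member that was called, whose groups did not overlap or that is central to the organelle; in each companion list up to 4 called genes of smallest p are named, with Tfeb, Tfe3, Mitf, Cd68, Adgre1, Lyz2 and Gpnmb in any case. The values of 1 gene that this rule names are not reported here.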

Additional observations from a re-analysis of the deposited data

How the results depend on the processing

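Beside the fit reported, 14 other settings and the leaving out of each library were tried. Of the 13 members called, 8 stayed called in all 14 settings (Asah1, Atp6v1a, Atp6v1b2, Ctsd, Gusb, Lipa, Psap and Scarb2), 6 without any 1 library, and 5 in both. The number of members called ranged from 9 (empirical Bayes without trend) to 19 (equal library totals) over the settings and from 6 to 13 without 1 library, always with 0 higher. Over all genes the number called was 2916 with the length trend removed, 2560 with length removal and the replicate block, 2971 with the median transcript length, and 1841 to 5425 without 1 library, against 4479. Scaling without the 20 highest genes moved the median of all genes by -0.11 and gave 1501 higher and 2497 lower. Without 1 library the number called was 3 to 13 among other hydrolases, 4 to 8 among other membrane proteins, 2 to 6 among other pump genes, 3 to 15 among TFEB and nutrient sensing genes and 3 to 11 among sorting genes. Empirical Bayes without trend gave 5 other hydrolases, 5 other membrane proteins, 3 other pump genes, 4 TFEB and nutrient sensing genes and 5 sorting genes. TFEB and nutrient sensing genes numbered 4 with length removal, 3 with length removal and block and 5 with the median length. Other membrane proteins numbered 5 with length removal and block and also 5 with the median length, and other pump genes 3 with length removal and block. The cause of these moves was not tested.

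Replicate numbers do not pair the samples by the labels, and the deviations of same-numbered libraries correlated at -0.098, 0.031 and 0.108, so not every library was closest to its own number. With the replicate block, 3945 genes and 11 members were called, without Lamp1 and Grn.

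Some small differences changed sign. Equal library totals gave -0.0804 for Ctsa, -0.0989 for Ctsh, -0.185 for Ctsl, -0.0742 for Neu1 and -0.208 for Atp6v1h, totals without the 20 highest genes -0.0853 for Ctsl and -0.109 for Atp6v1h, quantile normalization -0.0159 for Ctsh and -0.0559 for Ctsl, and sample weights -0.0550 for Atp6v1h and 0.00253 for Tfeb. Length removal, with or without the block, gave 0.2015 for Npc1, -0.113 for Ctsh, -0.0640 for Atp6v1h, -0.0404 for Atp6v0b and -0.1535 for Atp6v1f. On the median length the differences were 0.249 for Npc1, 0.0180 for Ctsc, -0.0409 for Ctsh, -0.0768 for Atp6v1h, -0.0591 for Atp6v1f, 0.0222 for Tfeb and -0.0148 for Vps29. Without 1 library the range was -0.0184 to 0.369 for Ctsa, -0.231 to 0.274 for Ctsl, -0.486 to 0.0196 for Ctsz, -0.2198 to 0.156 for Atp6v1h and -0.109 to 0.0394 for Tfeb.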

Other observations

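Other cell types of the liver were followed with marker lists as values beside the lysosomal genes. Of all tested genes 14.2% were lower and 12.8% higher, and after length removal 8.21% were lower and 9.94% higher. The share of all tested genes at an unadjusted p under 0.05 was not counted. Of 8 stellate cell and fibroblast markers 4 fell and 0 rose, of 8 endothelial markers 0 passed the limma test (2 had an unadjusted p under 0.05), and of 4 neutrophil markers 0 passed (2 had an unadjusted p under 0.05). Of 12 hepatocyte markers 2 fell and 1 rose, of 5 cholangiocyte markers 1 fell and 1 rose, and of 8 lymphocyte markers 1 rose and 0 fell. After length removal 2 stellate markers were lower and 0 higher, 0 hepatocyte markers were called (5 had an unadjusted p under 0.05 before it), and the counts of the cholangiocyte, lymphocyte, endothelial and neutrophil lists were as before it.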
